A study of Mus musculus with 24 samples.

Results

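The transcripts of the cytotoxic granule were followed in T cells sorted from mouse tumours: perforin (Prf1), granzymes A, B, C, F and K (Gzma, Gzmb, Gzmc, Gzmf and Gzmk), the granule membrane proteins Nkg7 and Lamp1, and the cysteine protease cathepsin W (Ctsw). These 9 genes were taken by symbol from a count table of 54957 gene rows, and all 9 were found. The table holds 24 bulk RNA libraries in 6 groups of 4. CD8+ T cells and CD4+FOXP3+ regulatory T (Treg) cells were each collected from B16F10-OVA tumours after anti-JAML, anti-PD-1 or isotype control antibody; B16F10 is a line of mouse melanoma cells, here carrying ovalbumin. Every mouse carried such a tumour and received 200 µg of 1 of these antibodies, and tissue was taken 1 day after the dose. Each library came from fewer than 400 cells amplified by Smart-seq2, a full-length method for very small inputs. Mouse strain, age and sex, and whether a library came from 1 mouse or a pool, are not stated in the labels. The labels do not say whether replicates are different animals, so p-values measure library-to-library spread alone, part of which may be technical.

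Cytotoxic lymphocytes kill by releasing granules onto a target cell. Perforin forms pores in the target membrane, and granzymes, a family of serine proteases, enter through them and cleave proteins that trigger cell death. Granzyme B cuts after aspartate and activates caspases, granzymes A and K cut after basic residues, and granzymes C and F are rodent members encoded beside granzyme B. CD8 T cells that have met antigen are the usual source, while Gzmk is known as a marker of less terminally differentiated effector and memory CD8 cells. Treg cells can also make granzyme B, which has been described as one of their means of suppression. JAML is an adhesion receptor of lymphocytes and myeloid cells, and PD-1 restrains T cells after activation.

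The sorted identities were clear in the defining markers. Cd8a averaged 1439 to 1759 CPM (counts scaled to the library's size) in the 3 CD8 groups, against 2 reads in total over the 12 Treg libraries. Foxp3 averaged 70.1 to 117 CPM in the Treg groups, and no read of it was counted in any CD8 library. Total counts per library lay between 11170918 and 22556460. Several libraries stood apart in transcripts of other cells. Replicate 2 of the CD8 anti-JAML group had a summed level of 457 CPM over 9 macrophage and monocyte markers, against 21 to 62.7 CPM in the other 3 libraries of its group. Replicates 1 and 4 of the Treg anti-PD-1 group had 801 and 1184 CPM of the same markers, against 150 and 11.6 CPM in replicates 2 and 3. Replicate 4 of the CD8 anti-JAML group gave 6.89% of its counts to mitochondrial genes. Natural killer (NK) cells share most of the granule genes. Of 9 NK cell markers, the defining receptor Ncr1 and Klra4 had 0 reads in all 12 CD8 libraries. Most of the list had reads in CD8 cells: 7 markers after anti-JAML, 6 after anti-PD-1 and 7 after isotype. The summed NK list was 160 to 238 CPM in the CD8 anti-JAML group and 104 to 201 CPM in the CD8 anti-PD-1 group, against 83.7 to 127 CPM in the CD8 isotype group. The part of NK cells in the granule gene levels was not tested. The list includes Eomes, which CD8 T cells also express and which averaged 67.5 ± 41.5 CPM after anti-JAML and 26.3 ± 9.23 CPM after anti-PD-1, against 38.1 ± 3.07 CPM after isotype in CD8 cells (SD, n = 4 each).

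The genes lie on 6 chromosomes in mm10 (GENCODE M21), and all 9 are annotated as protein-coding. Gzmb (chr14:56258838-56262260), Gzmc (chr14:56231441-56234656) and Gzmf (chr14:56205263-56211417) lie in 1 granzyme cluster on the minus strand. Gzma (chr13:113093825-113100981) and Gzmk (chr13:113171608-113225908) form a second pair on that strand. Prf1 (chr10:61297833-61304680) and Nkg7 (chr7:43437073-43438249) are on the plus strand, Ctsw (chr19:5465043-5468507) on the minus strand and Lamp1 (chr8:13159161-13175338) on the plus strand. Exons of Gzmf, Ctsw and Lamp1 overlap exons of Gm4022, Fibp and Grtp1 on the other strand. No source used here gives the strand setting of the counting, so reads of these pairs cannot be told apart.

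Prf1, Gzmb and Gzmk were taken because their groups did not overlap between anti-PD-1 and isotype in CD8 cells. Gzmc and Gzmf were taken because their likeness to other granzyme copies leaves their counts uncertain. The upstream sequences of these 5 members are shown. Each is the 250 bases before the annotated start, read 5′ to 3′ on the gene's strand, from RefSeq on build GRCm38.p6. The RefSeq start of Gzmk lies inside the longer GENCODE span of the gene. That of Gzmb lies upstream of its GENCODE span, so its distances below hold for the RefSeq start alone. Capitals mark matches, on either strand, to 4 short motifs: a cyclic AMP response element (CRE, TGACGTCA), a RUNX motif (TGTGGT), a T-box motif (GGTGTGA) and an AP-1 motif (TGANTCA). The motifs were chosen after the sequences were seen.
Prf1, chr10:61297586-61297835, plus strand: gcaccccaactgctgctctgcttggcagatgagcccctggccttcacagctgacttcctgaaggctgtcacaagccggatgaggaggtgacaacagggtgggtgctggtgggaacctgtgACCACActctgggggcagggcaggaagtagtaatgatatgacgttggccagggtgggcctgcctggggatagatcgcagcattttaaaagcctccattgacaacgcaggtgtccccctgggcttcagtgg
Gzmb, chr14:56262335-56262584, minus strand: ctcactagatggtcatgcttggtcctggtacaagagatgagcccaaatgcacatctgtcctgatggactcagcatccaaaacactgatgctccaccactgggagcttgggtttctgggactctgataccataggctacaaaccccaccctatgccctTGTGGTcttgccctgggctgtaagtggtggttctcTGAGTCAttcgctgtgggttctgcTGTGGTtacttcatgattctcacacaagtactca
Gzmc, chr14:56234658-56234907, minus strand: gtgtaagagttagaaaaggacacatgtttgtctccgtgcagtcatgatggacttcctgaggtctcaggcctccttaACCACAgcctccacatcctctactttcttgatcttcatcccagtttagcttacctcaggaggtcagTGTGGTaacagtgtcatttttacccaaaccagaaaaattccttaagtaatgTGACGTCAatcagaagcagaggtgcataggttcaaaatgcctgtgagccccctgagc
Gzmf, chr14:56211408-56211657, minus strand: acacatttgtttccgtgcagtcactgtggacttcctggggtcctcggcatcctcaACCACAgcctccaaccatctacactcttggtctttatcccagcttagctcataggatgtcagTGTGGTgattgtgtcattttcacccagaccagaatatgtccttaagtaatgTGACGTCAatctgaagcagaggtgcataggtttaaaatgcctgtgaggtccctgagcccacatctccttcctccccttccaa
Gzmk, chr13:113180966-113181215, minus strand: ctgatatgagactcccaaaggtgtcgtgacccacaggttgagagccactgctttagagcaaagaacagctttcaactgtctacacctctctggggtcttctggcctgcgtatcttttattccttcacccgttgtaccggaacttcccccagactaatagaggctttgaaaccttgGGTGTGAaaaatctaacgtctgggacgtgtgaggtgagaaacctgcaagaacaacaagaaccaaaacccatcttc

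Matches to the motifs differed between the members. Gzmc and Gzmf each hold a CRE, 57 and 82 bases before the start, and Gzmb holds an AP-1 match 58 bases before it. Gzmb, Gzmc and Gzmf hold 2 RUNX matches each and Prf1 holds 1. Gzmk holds no RUNX match in this window and 1 T-box match, 75 bases before the start. Among 32851 mouse promoter windows of the same 250 bases, 1.55% hold the CRE, 14.0% the RUNX motif, 3.33% the T-box motif and 6.75% the AP-1 motif. A match is a run of letters and not evidence that a factor binds there. The windows of Gzmc and Gzmf were identical at 85.8% of 225 aligned bases, against 62.8% for Gzmb and Gzmc. RefSeq windows were matched for 8 of the 9 members, all but Ctsw.

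The transcripts of the chromosome 14 granzymes resemble each other as well. Gzmf is 90.9% identical to Gzmg with a shared run of 72 bases, and Gzmc shares a run of 68 bases with Gzme. The counts of Gzmc and Gzmf are therefore uncertain, since the handling of reads that fit several copies is not given. Gzmb shares at most 49 bases in a row with any of the 6 copies compared, that run being with Gzmc.

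Nkg7 was the most abundant member in every group, and levels of different genes are compared here in the deposited TPM, which scales counts by transcript length. Nkg7 averaged 10730 ± 3212 TPM in CD8 cells after anti-JAML, 12505 ± 1303 TPM after anti-PD-1 and 13178 ± 899 TPM after isotype (SD, n = 4 each). It ranked between the 4th and the 10th most abundant gene in the 12 CD8 libraries and between the 6th and the 20th in the 12 Treg libraries. In the CD8 isotype group Gzmb followed at 2821 ± 926 TPM. Gzmk (492 ± 83.7 TPM), Ctsw (447 ± 36.8 TPM) and Prf1 (372 ± 92 TPM) came next in order. The ranges of Gzmk and Ctsw overlapped, and so did those of Ctsw and Prf1. Gzmc (142 ± 65 TPM) and Gzma (91.4 ± 30.5 TPM) were lower and overlapped each other. Lamp1 (43.2 ± 6.41 TPM) and Gzmf (18.3 ± 25.1 TPM) were lowest and overlapped as well.

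The same order did not hold under anti-PD-1. Prf1 averaged 1459 ± 935 TPM in that CD8 group and stood behind Nkg7 and Gzmb, above Ctsw (542 ± 133 TPM) and Gzmk (301 ± 70.1 TPM), with a lowest Prf1 library of 561 TPM that fell within the range of Ctsw. Gzmb ranked between the 9th and the 16th most abundant gene in the 4 CD8 anti-PD-1 libraries, between the 46th and the 107th in the 4 anti-JAML libraries and between the 27th and the 70th in the 4 isotype libraries. Together the 9 genes took 0.64 ± 0.179% of all counts in CD8 cells after anti-JAML and 1.07 ± 0.156% after anti-PD-1, against 0.842 ± 0.1% after isotype (SD, n = 4 each).

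**Figure D1:**
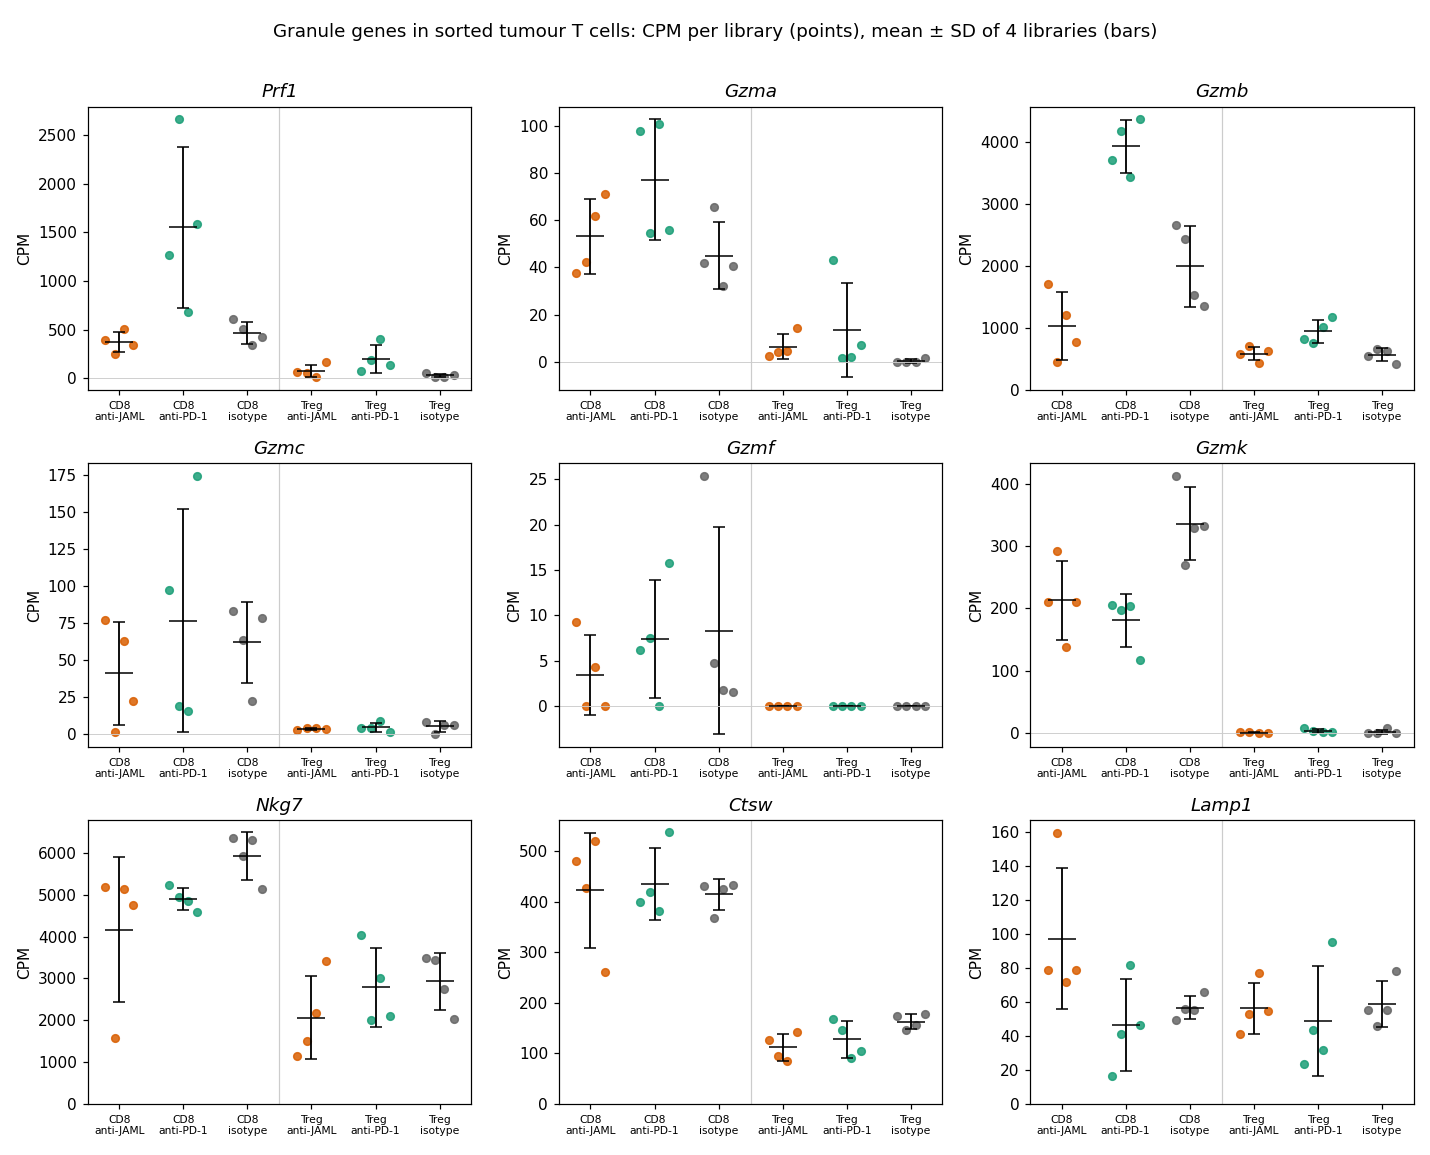
CPM (vertical axis, linear) of the 9 granule genes in the 6 groups, with 1 point for each of 4 libraries and bars for the mean ± SD. In the CD8 groups the 4 anti-PD-1 libraries lie above the 4 isotype libraries for Prf1 (678 to 2659 against 345 to 609 CPM) and Gzmb (3438 to 4369 against 1347 to 2664 CPM), while Gzmf is at 0 in every Treg library.

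CD8 cells after anti-JAML were compared with CD8 cells after isotype to ask how the antibody to JAML bears on the killing machinery. None of the 9 members passed the test (edgeR's quasi-likelihood test, Benjamini-Hochberg adjustment over 12648 genes, two-sided, threshold 0.05), and neither did any other gene, a background of 0%. Of the 9 fold changes 6 were negative (Prf1, Gzmb, Gzmc, Gzmf, Gzmk and Nkg7) and 3 positive (Gzma, Ctsw and Lamp1). At an unadjusted p under 0.05 there were 2 members, Gzmb and Gzmk, beside 11.7% of all genes tested. DESeq2, the other tool run, called 294 genes and 0 members. The median log2 fold change was -0.47 over the members and 0.09 over all genes.

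Granzyme B was at 1711, 455, 1209 and 777 CPM in the anti-JAML libraries (replicates 1 to 4), against 2664, 2428, 1525 and 1347 CPM in the isotype libraries. Only anti-JAML replicate 1 lay inside the isotype range, and the other 3 lay below it. Its log2 fold change was -0.90 ± 0.34 (SE, adjusted p = 0.363, edgeR). Without replicate 2, the library with macrophage reads, it was -0.65, and without both CD8 anti-JAML libraries that stood apart, replicates 2 and 4, it was -0.41 (edgeR, adjusted p = 0.761). The part of those reads in the value was not tested.

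Granzyme K, the protease of less differentiated effectors, was at 210, 292, 138 and 210 CPM after anti-JAML, against 411, 270, 329 and 333 CPM after isotype. Anti-JAML replicate 2 was above the lowest isotype library, and the other 3 were below all isotype libraries. Its log2 fold change was -0.62 ± 0.24 (adjusted p = 0.374, edgeR). Perforin was not called, with 398, 250, 503 and 345 CPM after anti-JAML against 609, 508, 345 and 424 CPM after isotype. Its ranges overlapped and its log2 fold change was -0.29 ± 0.35 (adjusted p = 0.784, edgeR).

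Lamp1, a lysosomal membrane glycoprotein that reaches the cell surface when granules are released, was the 1 member whose groups did not overlap, being higher after anti-JAML, beside 2.85% of all genes. It had 78.8, 160, 71.7 and 79 CPM in the anti-JAML libraries, against 49.6, 55.6, 55.5 and 65.7 CPM in the isotype libraries. The log2 fold change was 0.82 ± 0.40 (adjusted p = 0.442, edgeR), and without anti-JAML replicate 2, the highest library, it was 0.48. Nkg7 had 5187, 1578, 5132 and 4751 CPM after anti-JAML, against 6359, 5924, 6319 and 5127 CPM after isotype. Replicate 2 was again far from its group, and the log2 fold change of Nkg7 was -0.47 ± 0.28 (adjusted p = 0.545, edgeR). Gzma (0.29 ± 0.30) and Ctsw (0.07 ± 0.20) differed by about 1 SE or less. Gzmc had 77.1, 1.8, 62.7 and 22.5 CPM after anti-JAML, against 83.2, 63.5, 22.7 and 78.2 CPM after isotype, and its ranges overlapped. Its log2 fold change was -0.55 ± 0.89 (adjusted p = 0.848, edgeR), and without the 2 anti-JAML libraries that stood apart it was 0.21. Gzmf was detected in 2 of 4 anti-JAML libraries and 4 of 4 isotype libraries, and its fold change of -1.25 ± 1.67 turned to 0.39 without isotype replicate 1.

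CD8 cells after anti-PD-1 were set against the same isotype libraries. Perforin and granzyme B were at their highest levels of the whole series, and granzyme K was lower than after isotype. None of the 9 members passed the adjusted threshold, beside a background of 0% of 12648 genes, and the smallest adjusted p among the members was 0.831 (Prf1, edgeR). At an unadjusted p under 0.05 there were 4 members, Prf1, Gzma, Gzmb and Gzmk, beside 5.61% of all genes. Groups did not overlap for 2 members that were higher, Prf1 and Gzmb, beside 3.49% of all genes, and for 1 that was lower, Gzmk, beside 3.36%. The members' median log2 fold change was 0.09, against 0.04 over all genes.

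Perforin was at 1271, 2659, 678 and 1590 CPM after anti-PD-1, against 609, 508, 345 and 424 CPM after isotype. All 4 anti-PD-1 libraries were above all 4 isotype libraries, and replicate 3 was nearest to them. The mitochondrial share of counts in the same anti-PD-1 libraries was 2.59, 1.46, 3.29 and 1.92%, the reverse of their order in Prf1, against 2.88 to 3.87% in the isotype libraries. The order was not reversed in the isotype or anti-JAML libraries of CD8 cells. Genes detected averaged 14841 ± 394 after anti-PD-1, against 14095 ± 210 after isotype (SD, n = 4 each), and the part of these measures in the Prf1 value was not tested. The log2 fold change was 1.75 ± 0.36 (SE), a 3.37-fold higher level, with an unadjusted p of 0.000276, the second smallest of the 12648 genes in edgeR's quasi-likelihood test. For Prf1 DESeq2 gave 1.73 ± 0.37 and an adjusted p of 0.00204, so the call of Prf1 rests on the tool. In this comparison DESeq2 called 59 genes in all, where edgeR called 0.

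Granzyme B was at 3707, 4179, 3438 and 4369 CPM after anti-PD-1, against 2664, 2428, 1525 and 1347 CPM after isotype. The groups did not overlap, and the 4 anti-PD-1 libraries were closer together than the isotype ones. Gzmb had a log2 fold change of 1.01 ± 0.34 (adjusted p = 0.857, edgeR). Granzyme A was higher on average, at 97.9, 54.5, 100.5 and 55.9 CPM, against 42, 65.4, 32.1 and 40.6 CPM after isotype, with overlapping ranges and a log2 fold change of 0.80 ± 0.30 (adjusted p = 0.865, edgeR). Granzyme K was at 205, 198, 203 and 116 CPM after anti-PD-1, against 411, 270, 329 and 333 CPM after isotype. Every anti-PD-1 library was below every isotype library, and the log2 fold change was -0.87 ± 0.24 (adjusted p = 0.856, edgeR).

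The remaining members were within their spread after anti-PD-1. Log2 fold changes were -0.25 ± 0.28 for Nkg7, 0.09 ± 0.20 for Ctsw, -0.26 ± 0.40 for Lamp1, 0.32 ± 0.89 for Gzmc and -0.14 ± 1.64 for Gzmf (adjusted p = 1 for each, edgeR). Gzmc had 97.4, 19.1, 15.3 and 174 CPM after anti-PD-1, which took in all 4 isotype libraries. Lamp1 had 16.2, 40.9, 82 and 46.8 CPM in that group, a range that took in all 4 isotype libraries. Gzmf was detected in 3 of 4 libraries after anti-PD-1.

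**Figure D2:**
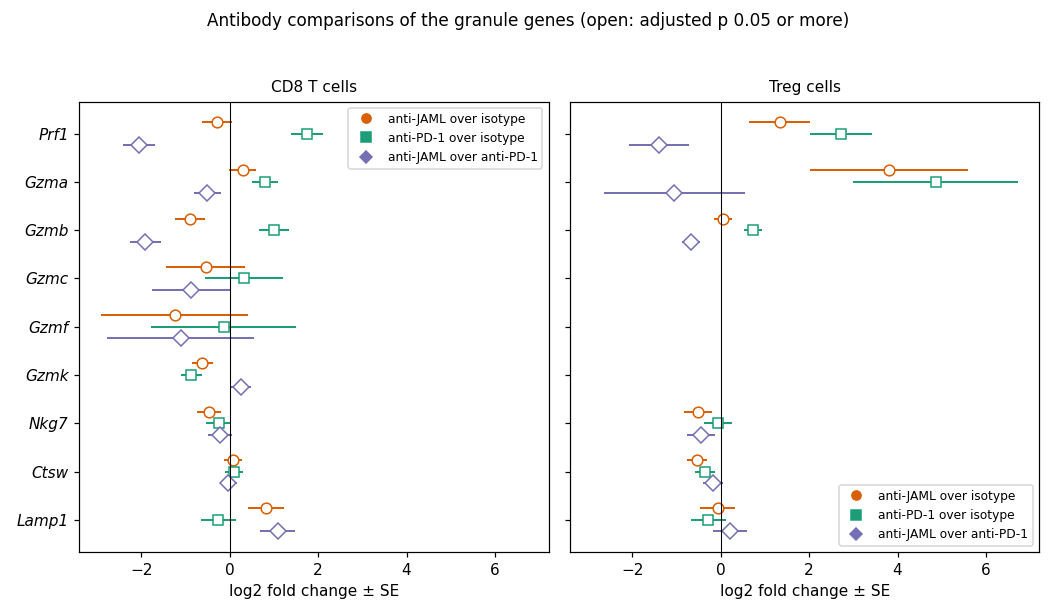
Log2 fold change ± SE (horizontal axis) of the granule genes for the 3 antibody comparisons, in CD8 cells (left) and Treg cells (right), from edgeR fits to the 12 libraries of each population. All symbols are open because no member had an adjusted p under 0.05, and Gzmc, Gzmf and Gzmk are not drawn for Treg cells, where they had few or no reads. In CD8 cells the Prf1 and Gzmb values of anti-JAML over anti-PD-1 (-2.05 and -1.91) lie farthest from 0 relative to their errors.

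The 2 antibodies to receptors were also compared with each other in CD8 cells. Relative to anti-PD-1, anti-JAML left Prf1 and Gzmb about 4-fold lower on average, and their groups did not overlap, beside 3.32% of all genes not overlapping in that direction. Neither passed the adjusted threshold, and 1 of 12648 genes did (0.00791%). At an unadjusted p under 0.05 there were 3 members (Prf1, Gzmb and Lamp1), beside 9.97% of all genes. Because all comparisons of a population share libraries, these values repeat information from the comparisons with isotype.

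The 4 anti-JAML libraries held 250 to 503 CPM of Prf1, and the 4 anti-PD-1 libraries held 678 to 2659 CPM. That gave a log2 fold change of -2.05 ± 0.36 (adjusted p = 0.077, edgeR's quasi-likelihood test). Gzmb was at 455 to 1711 CPM after anti-JAML and at 3438 to 4369 CPM after anti-PD-1, with a log2 fold change of -1.91 ± 0.35 (adjusted p = 0.0838, edgeR). Both passed in DESeq2, with adjusted p-values of 2.38e-05 for Prf1 and 4.43e-05 for Gzmb, among 376 genes called in all. Both also passed in edgeR without a filter on low counts (adjusted p = 0.0461 each), and Prf1 passed without anti-PD-1 replicate 3 (-2.30, adjusted p = 0.0191). Without the 2 anti-JAML libraries that stood apart the log2 fold changes were -1.80 for Prf1 and -1.43 for Gzmb, with adjusted p-values of 0.227 and 0.167 in edgeR. Lamp1 was higher after anti-JAML on average, with a log2 fold change of 1.08 ± 0.40 (adjusted p = 0.358, edgeR) and overlapping ranges. The log2 fold changes of Gzmk (0.25) and Nkg7 (-0.22) were small, and without the 2 libraries they were -0.05 and 0.07.

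The make-up of the granzyme transcripts within each CD8 library differed between groups, and shares within a library do not depend on how libraries are scaled. Gzmb made up 70.7 ± 11.4% of the TPM of the 5 granzymes after anti-JAML and 90.1 ± 2.08% after anti-PD-1, against 78.4 ± 4.92% after isotype (SD, n = 4 each). In single libraries its share was 80.7, 55.5, 78.1 and 68.6% after anti-JAML and 87.7, 92.8, 90.1 and 89.7% after anti-PD-1, against 80.2, 83.5, 78.2 and 71.8% after isotype. Each anti-PD-1 library was above every library of the other 2 groups.

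Gzmk took 18.9 ± 12.8% after anti-JAML and 4.39 ± 1.34% after anti-PD-1, against 14.5 ± 4.1% after isotype. The ratio of Gzmb to Gzmk TPM was 7.9, 1.51, 8.46 and 3.57 after anti-JAML and 17.5, 20.4, 16.4 and 36.3 after anti-PD-1, against 6.26, 8.71, 4.48 and 3.92 after isotype. The lowest anti-PD-1 ratio, 16.4, was above the highest of the other CD8 libraries, 8.71. The ratio of Prf1 to Gzmk ran from 0.461 to 1.95 after anti-JAML and from 1.8 to 7.34 after anti-PD-1, against 0.562 to 1.01 after isotype. The ratio of Gzmb to Prf1 overlapped between all 3 groups, from 2.83 to 9.12 in the anti-PD-1 group alone. These shares and ratios were chosen after the values were seen and are given as a description. Gzma, Gzmc and Gzmf each held less than 10% of the granzyme TPM in every CD8 library, and Gzma reached 8.95% in anti-JAML replicate 4.

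**Figure D3:**
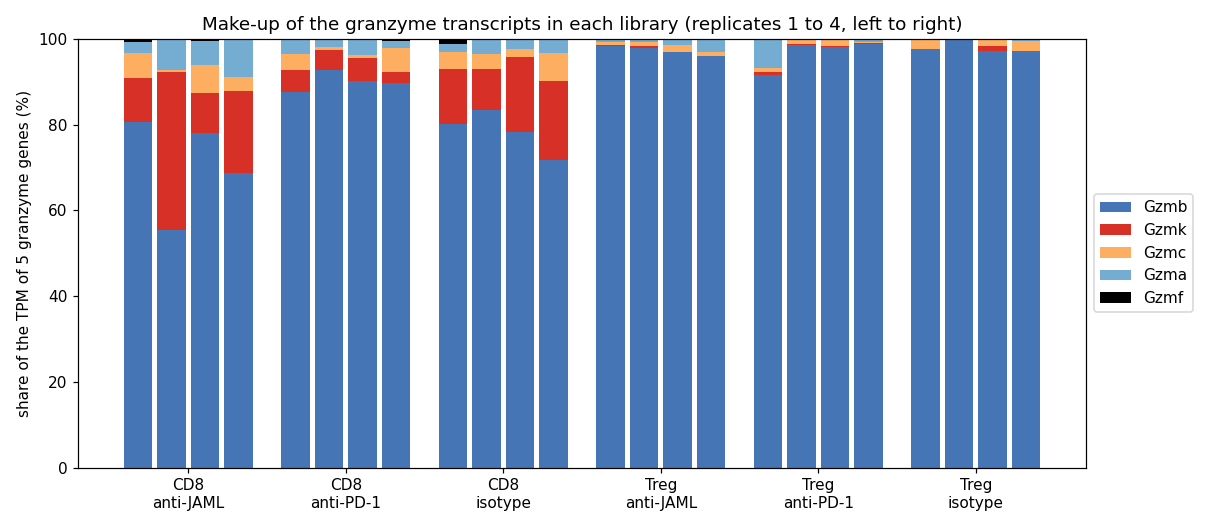
Share of the summed TPM of Gzma, Gzmb, Gzmc, Gzmf and Gzmk (vertical axis, percent) in each of the 24 libraries, grouped by population and antibody. Gzmb holds 87.7 to 92.8% in the CD8 anti-PD-1 libraries and 91.5 to 100% in the 12 Treg libraries, and Gzmk holds up to 36.8% in CD8 anti-JAML replicate 2.

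Treg cells carried granule transcripts too, of a different make-up. Nkg7 and Gzmb were abundant, Ctsw, Lamp1 and Prf1 were present in all 12 libraries, Gzma, Gzmc and Gzmk were sparse, and no read of Gzmf was counted in 12 libraries of 197416396 reads in all, which allows up to 0.0152 CPM. Gzmb held 97.3 ± 1.11% of the granzyme TPM after anti-JAML and 96.7 ± 3.53% after anti-PD-1, against 98 ± 1.36% after isotype. Gzmk was at 0 reads in 2 of 4 anti-JAML libraries and in 2 of 4 isotype libraries, where a count of 0 allows between 0.133 and 0.269 CPM per library over all members at 0. In these bulk samples a smaller share of cells with a transcript and less transcript per cell cannot be told apart. Smart-seq2 reads carry no molecular identifiers, so such limits cover counting error only.

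Treg cells after anti-JAML were compared with Treg cells after isotype, and 0 of 8 tested members passed, beside a background of 0% of 12981 genes in edgeR's test; DESeq2 called 166 genes and 0 members. At an unadjusted p under 0.05 there was 1 member, Ctsw, beside 5.38% of all genes. Ctsw, a cathepsin found mainly in CD8 T and NK cells, was at 127, 95.1, 85.2 and 142 CPM after anti-JAML, against 173, 146, 156 and 177 CPM after isotype. Its groups did not overlap, beside 1.03% of all genes lower in that way, and the log2 fold change was -0.54 ± 0.23 (adjusted p = 0.88, edgeR).

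Granzyme A was counted in all 4 anti-JAML libraries of Treg cells, with 44, 75, 90 and 241 reads, against 0, 0, 0 and 28 reads in the isotype libraries. In CPM these were 2.61, 4.18, 4.7 and 14.5 after anti-JAML, against 0, 0, 0 and 1.81 after isotype. The groups did not overlap, beside 1.67% of all genes higher in that way, and the fitted log2 fold change was 3.81 ± 1.78 (adjusted p = 0.942, edgeR). It was 3.06 without anti-JAML replicate 4 and 9.81 without isotype replicate 4, so it rests on the 28 isotype reads and gives no size. Replicate 4, the highest anti-JAML library, also had 1373 CPM of erythroid markers, all of them haemoglobin genes, whose part in the value was not tested. Cd8a had 0 reads in these 8 libraries, while Cd8b1 had reads in both groups. Ncr1 had 73 reads in 1 anti-JAML library and 0 in the other 7. Of 9 NK markers, 7 had reads after anti-JAML and 3 after isotype. Their summed level was 2.31 to 47 CPM after anti-JAML, against 2.75 to 84.3 CPM after isotype. The part of other cells in the Gzma value was not tested. Prf1 had 67.3, 57.4, 14.2 and 165 CPM after anti-JAML, against 53.5, 17, 15 and 35.3 CPM after isotype, with overlapping ranges and a log2 fold change of 1.33 ± 0.68 (adjusted p = 1, edgeR), or 0.64 without anti-JAML replicate 4. Gzmb was level, with a log2 fold change of 0.05 ± 0.20 that was -0.05 without isotype replicate 4. Nkg7 (-0.51 ± 0.32) and Lamp1 (-0.07 ± 0.39) overlapped.

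Treg cells after anti-PD-1 held more Prf1 and Gzmb than Treg cells after isotype in every library, without passing the adjusted threshold. None of 8 tested members passed, beside 0.0231% of 12981 genes, and 3 members had an unadjusted p under 0.05 (Prf1, Gzma and Gzmb), beside 14.1% of all genes. Prf1 was at 74.9, 185, 403 and 133 CPM after anti-PD-1, against 53.5, 17, 15 and 35.3 CPM after isotype. The groups did not overlap, beside 5.15% of all genes higher in that way, and the log2 fold change was 2.72 ± 0.71 (adjusted p = 0.123, edgeR), or 2.12 without anti-PD-1 replicate 3. The mitochondrial share was 3.38, 1.49, 1.2 and 1.5% in the anti-PD-1 libraries, the reverse of their order in Prf1, against 2.09 to 4% in the isotype libraries. The order was not reversed in the isotype or anti-JAML libraries of Treg cells. After anti-JAML the library with the most Prf1, replicate 4 at 165 CPM, had the highest mitochondrial share, 3.04%. Genes detected averaged 14720 ± 500 after anti-PD-1, against 13264 ± 763 after isotype (SD, n = 4 each), and the part of these measures was not tested. Gzmb was at 819, 765, 1021 and 1179 CPM, against 553, 665, 630 and 427 CPM after isotype. The groups did not overlap, with a log2 fold change of 0.73 ± 0.20 (adjusted p = 0.141, edgeR).

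Gzma had 43.3, 1.61, 1.93 and 7.2 CPM in Treg cells after anti-PD-1, against 0, 0, 0 and 1.81 CPM after isotype. Replicate 1, a library with 801 CPM of macrophage markers, 126 CPM of NK markers and 681 CPM of erythroid markers, held most of it. Replicate 4 had 1184, 138 and 0.629 CPM of these markers in that order, with 7.2 CPM of Gzma. The fitted log2 fold change was 4.86 ± 1.87 (adjusted p = 0.252, edgeR), 2.95 without anti-PD-1 replicate 1 and 10.82 without isotype replicate 4, and the part of other cells in it was not tested. DESeq2 called Prf1, Gzmb and Gzma in this comparison (adjusted p = 0.00246, 0.0177 and 0.0394), among 792 genes called in all, where edgeR called 3. Without the libraries that stood apart (anti-PD-1 replicates 1 and 4 and isotype replicate 3) the log2 fold changes in edgeR were 3.08 for Prf1, 0.72 for Gzmb and 1.54 for Gzma (adjusted p = 0.18, 0.259 and 0.811). Nkg7 (-0.07 ± 0.32), Ctsw (-0.36 ± 0.23) and Lamp1 (-0.28 ± 0.39) overlapped between the groups.

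Between the antibodies, Gzmb was lower in Treg cells after anti-JAML, at 443 to 707 CPM, than after anti-PD-1, at 765 to 1179 CPM. It was the 1 member of 8 whose groups did not overlap, beside 2.3% of all genes lower in that way, and its log2 fold change was -0.68 ± 0.20 (adjusted p = 0.641, edgeR). None of the 8 passed, beside a background of 0%, and Gzmb alone had an unadjusted p under 0.05, beside 5.72% of all genes. Prf1 had a log2 fold change of -1.39 ± 0.68 (adjusted p = 0.908, edgeR), which was -2.09 without anti-JAML replicate 4 and -0.77 without anti-PD-1 replicate 3. Gzma had one of -1.05 ± 1.60, which was 0.85 without anti-PD-1 replicate 1.

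Whether an antibody contrast differed between CD8 and Treg cells was tested as an interaction on all 24 libraries. None of 8 tested members passed in any of the 3 interactions, each beside a background of 0% of 14591 genes, and Gzmf could not be tested because it had no reads in Treg cells. DESeq2 called between 153 and 302 genes and 0 members in them. For anti-JAML against isotype, 3 members had an unadjusted p under 0.05, beside 8.39% of all genes. They were Prf1 (-1.66 ± 0.78, adjusted p = 0.585), Gzma (-3.66 ± 1.42, adjusted p = 0.449) and Gzmb (-0.99 ± 0.41, adjusted p = 0.494), given as log2 CD8 minus Treg in edgeR. The value of Prf1 was -0.95 without Treg anti-JAML replicate 4. In the anti-PD-1 contrast with isotype Gzma alone did so (-4.18 ± 1.43, adjusted p = 0.57, edgeR, and -0.83 without the libraries that stood apart), beside 6.25% of all genes. Between the antibodies it was Gzmb alone (-1.24 ± 0.41, adjusted p = 0.835, edgeR), beside 5.63%. Both Gzma values rest on the 28 reads of Treg isotype replicate 4: without that library they were -9.44 and -9.96, with adjusted p-values of 0.0361 and 0.0326 in edgeR, and all remaining isotype libraries of Treg cells were at 0, so these values depend on the prior count and give no size.

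**Figure D4:**
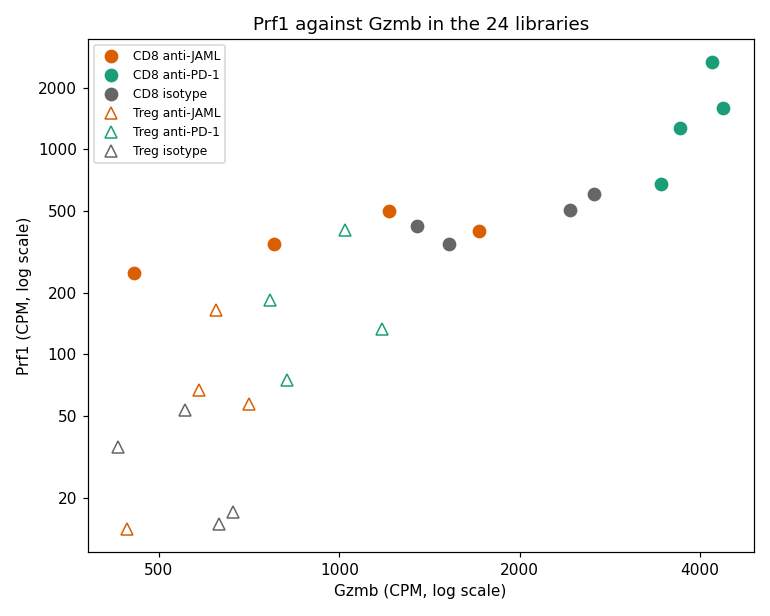
Prf1 (vertical axis) against Gzmb (horizontal axis), both in CPM on log scales, in the 24 libraries, with filled circles for CD8 and open triangles for Treg cells. The 4 CD8 anti-PD-1 libraries occupy the upper right corner (Gzmb 3438 to 4369 CPM, Prf1 678 to 2659 CPM), and the 12 Treg libraries lie between 14.2 and 403 CPM of Prf1.

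CD8 cells were then compared with Treg cells under each antibody. After isotype, 7 of 9 members were higher in CD8 cells with an adjusted p under 0.05 and none was lower, beside 8.21% of 11680 genes called higher and 7.12% called lower (edgeR, 8 libraries). They were Prf1, Gzma, Gzmb, Gzmf, Gzmk, Nkg7 and Ctsw. Of these, Gzma, Gzmf and Gzmk passed the filter on low counts through the CD8 libraries alone. Their direction was therefore largely fixed in advance, and the share over all genes is no measure for them. After anti-PD-1, 5 of 8 tested members were called higher, Prf1, Gzmb, Gzmc, Gzmk and Ctsw, beside 3.63% of 12193 genes. After anti-JAML, 3 of 8 were called higher, Gzma, Gzmk and Ctsw, beside 0.728% of 11950 genes. There Gzmk passed the filter through the CD8 libraries alone. The counts of calls were not compared with each other by a test, and the interactions above, which test the differences, called no member.

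Granzyme K separated the populations most widely among members with reads in both. It averaged 213 CPM in CD8 and 0.91 CPM in Treg cells after anti-JAML, 181 and 3.45 CPM after anti-PD-1, and 336 and 1.93 CPM after isotype. The log2 fold changes were 7.75 ± 1.14, 5.71 ± 0.54 and 7.40 ± 1.35 in that order (adjusted p = 0.00854, 0.000417 and 0.00702, edgeR). Without Treg anti-JAML replicate 2 the first was 8.90, and without Treg anti-PD-1 replicate 1 the second was 6.40. The isotype value rests largely on 127 reads in Treg replicate 3: without it the other 3 Treg libraries held 3 reads of Gzmk and the fitted value was 12.36, which depends on the prior count. Gzmf was at least 79.9-fold higher in CD8 cells after anti-JAML, at least 146-fold after anti-PD-1 and at least 205-fold after isotype, against a floor of 3 counts over the 4 Treg libraries of each group. These bounds for Gzmf fell to 33.5-fold without CD8 anti-JAML replicate 1, 90.1-fold without CD8 anti-PD-1 replicate 4 and 65.5-fold without CD8 isotype replicate 1. The isotype call of Gzmf in edgeR (adjusted p = 0.0207) was lost without CD8 isotype replicate 1 or 2 (adjusted p = 0.0553 and 0.0556).

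Ctsw was called in all 3 comparisons, with log2 fold changes of 1.81 ± 0.28 after anti-JAML, 1.76 ± 0.23 after anti-PD-1 and 1.28 ± 0.12 after isotype (adjusted p = 0.0107, 0.00228 and 0.00029, edgeR). The lowest CD8 library of the 12, at 261 CPM, was above the highest Treg library, at 177 CPM. Without Treg anti-JAML replicate 2 the adjusted p of Ctsw after anti-JAML was 0.0545 in edgeR. Nkg7 was about 2-fold higher in CD8 cells each time, with log2 fold changes of 0.92 ± 0.42 after anti-JAML, 0.81 ± 0.23 after anti-PD-1 and 0.95 ± 0.18 after isotype. It was called after isotype alone (adjusted p = 0.4, 0.064 and 0.00796 in that order, edgeR), and it passed after anti-PD-1 without Treg replicate 1 (1.05, adjusted p = 0.00811).

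Granzyme B had its smallest difference between populations after anti-JAML. CD8 cells averaged 1038 CPM and Treg cells 589 CPM after anti-JAML, and the ranges of 455 to 1711 CPM and 443 to 707 CPM overlapped. On the log2 scale the difference was 0.71 ± 0.36 (adjusted p = 0.47, edgeR), and without CD8 anti-JAML replicates 2 and 4 it was 1.22 (adjusted p = 0.0524). After anti-PD-1 the averages were 3923 CPM in CD8 and 946 CPM in Treg cells, with a log2 fold change of 2.05 ± 0.19 (adjusted p = 0.000413, edgeR). After isotype they were 1991 and 569 CPM, with a log2 fold change of 1.74 ± 0.25 (adjusted p = 0.00237, edgeR).

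Perforin was higher in CD8 cells by a log2 fold change of 2.20 ± 0.60 after anti-JAML (adjusted p = 0.111), 2.96 ± 0.55 after anti-PD-1 (adjusted p = 0.0124, and 3.56 without Treg replicate 3) and 3.90 ± 0.43 after isotype (adjusted p = 0.000663, edgeR). The anti-JAML libraries of the populations did not overlap either, the lowest CD8 library being at 250 CPM and the highest Treg library at 165 CPM. Non-overlapping groups numbered 4 members after anti-JAML, 7 after anti-PD-1 and 8 after isotype, beside 5.08%, 8.77% and 16.6% of all genes higher in that way. The isotype count takes in Gzma, Gzmf and Gzmk, and the anti-JAML count Gzmk, which passed the filter there through CD8 libraries alone. Without Treg anti-JAML replicate 4, Prf1 passed after anti-JAML (2.90, adjusted p = 0.0478, edgeR).

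Gzma was called higher in CD8 cells after anti-JAML (2.95 ± 0.58, adjusted p = 0.0316) and isotype (6.63 ± 1.48, adjusted p = 0.0163) but not after anti-PD-1 (2.51 ± 0.92, adjusted p = 0.128, edgeR). The isotype value of Gzma was 12.43 without Treg isotype replicate 4, which holds the 28 Treg reads of that group, so it gives no size, and the anti-JAML value was 3.71 without Treg replicate 4. After anti-PD-1 the lowest CD8 library, at 54.5 CPM, still stood above Treg replicate 1, at 43.3 CPM, and without that Treg library the value was 4.41 (adjusted p = 0.00363, edgeR). The anti-JAML call was lost in 6 of the 8 fits that left out 1 library (edgeR, adjusted p up to 0.114), and the isotype call was lost without CD8 isotype replicate 2 (adjusted p = 0.0581). Gzmc had log2 fold changes of 3.34 ± 0.89 after anti-JAML, 4.04 ± 0.88 after anti-PD-1 and 3.51 ± 1.06 after isotype, with adjusted p-values of 0.107, 0.023 and 0.0532 in edgeR. The anti-PD-1 call of Gzmc was lost without any 1 of 4 libraries (CD8 replicate 1 or 4, Treg replicate 2 or 4), with adjusted p-values of 0.0607 to 0.0733, and its value was 3.20 without CD8 replicate 4. Gzmc passed after anti-JAML without CD8 replicate 2 (3.73, adjusted p = 0.00844, edgeR) and after isotype without Treg replicate 2 (3.09, adjusted p = 0.00704). Lamp1 was not called in any of the 3, at 0.71 ± 0.33 after anti-JAML, -0.07 ± 0.53 after anti-PD-1 and -0.12 ± 0.21 after isotype.

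**Figure D5:**
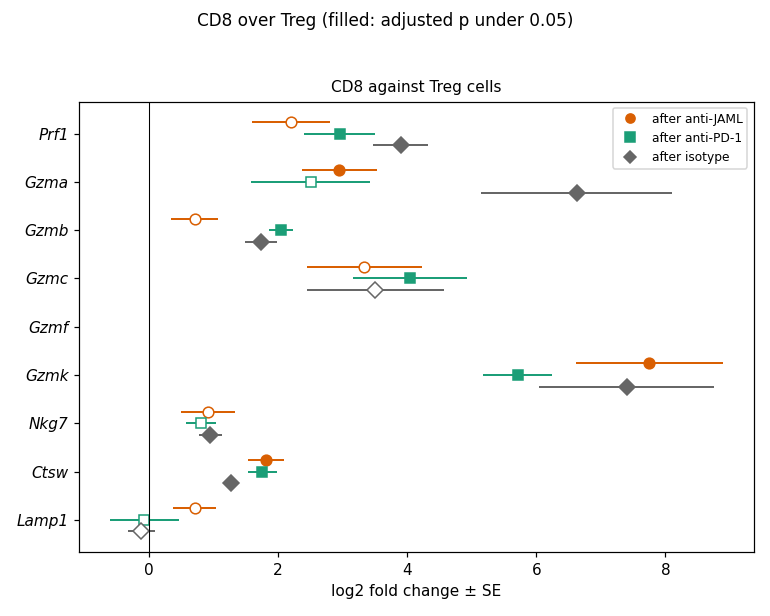
Log2 fold change ± SE (horizontal axis) of CD8 over Treg cells for the granule genes after anti-JAML, anti-PD-1 and isotype, from edgeR fits to 8 libraries each; filled symbols have an adjusted p under 0.05. Gzmk lies farthest to the right under each antibody (7.75, 5.71 and 7.40), Lamp1 has the smallest value after anti-PD-1 and isotype and shares it with Gzmb after anti-JAML (0.71), and Gzmf, with no reads in Treg cells, is not drawn.

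Other genes of the granule pathway were read from 3 lists, of which 42 of 43 genes were found in the table. In the 6 antibody comparisons within a population no gene of the lists passed. Between populations, granule contents and their processing factors divided. After isotype 8.21% of all genes were called higher in CD8 cells and 7.12% lower. Of 11 tested genes of the contents list, 5 were called higher and 2 lower. Higher were Gzmm, a further granzyme, Ctsc (1.03 ± 0.20), the protease that activates granzymes by removing a dipeptide, Cst7 (0.77 ± 0.17), an inhibitor of cathepsins, the chaperone Calr (0.63 ± 0.16) and Serpinb9 (1.3 ± 0.37), an inhibitor of granzyme B. Lower were Srgn (-1.61 ± 0.19), the proteoglycan that packs granule proteins, and Ctsb (-0.66 ± 0.11). The median log2 fold change of the list was 0.63, against -0.06 over all genes.

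Srgn was lower in CD8 than in Treg cells after anti-JAML (-1.63 ± 0.28, adjusted p = 0.0185) and after anti-PD-1 (-1.38 ± 0.28, adjusted p = 0.0161) as well, in edgeR. After anti-PD-1 the contents list had 4 genes called higher of 12, Gzme, Cst7, Serpinb9 and Serpinb6b, and 2 lower, Srgn and Furin. Over all 12193 genes tested there, 3.63% were called higher, and 955 genes were called in either direction. Serpinb9 averaged 458 ± 85.1 CPM in CD8 and 102 ± 25.1 CPM in Treg cells in that comparison (SD, n = 4 each). After anti-JAML the contents list had 1 gene higher of 11, Gzmm, and 1 lower, Srgn. Over all 11950 genes tested there, 0.728% were called higher, and 248 genes were called in either direction. Gzmm had no reads in the Treg libraries of the anti-JAML and isotype groups, and its mean in CD8 cells was 15.2 ± 11.6 CPM after anti-JAML, 8.97 ± 3.68 CPM after anti-PD-1 and 6.03 ± 5.43 CPM after isotype. In those anti-JAML and isotype comparisons Gzmm could pass the filter only through CD8 libraries.

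The machinery of the granule membrane and of release, 21 tested genes, gave no gene higher and 4 lower in CD8 cells after isotype: Lamp2, Stx11, Ap3b1 and Myo1e. That stood beside 8.21% of all genes called higher and 7.12% called lower. Stx11, a syntaxin needed for granule fusion, averaged 71.5 ± 12.9 CPM in CD8 and 133 ± 25.1 CPM in Treg cells (SD, n = 4 each, log2 fold change -0.97 ± 0.20, adjusted p = 0.0123, edgeR). After anti-PD-1 1 gene was higher, Lyst (1.25 ± 0.20), and 3 were lower, Lamp2, Stx11 and Myo1e. With 3.63% of all genes called higher there, 1 of 21 is near the background. In either direction 955 of 12193 genes were called. After anti-JAML 1 was lower, Sytl1 (-2.74 ± 0.39, adjusted p = 0.00709, edgeR), beside 248 of 11950 genes called in either direction. The list's medians were -0.34 after anti-JAML, -0.67 after anti-PD-1 and -0.27 after isotype, against -0.03, -0.05 and -0.06 over all genes.

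Of 4 death ligands and cytokines released by killer cells, Fasl and Ifng were called higher in CD8 cells after anti-PD-1 and isotype. The share of all genes called higher was 3.63% and 8.21% in that order. Ifng, the cytokine interferon gamma, averaged 586 ± 82.1 CPM in CD8 and 53 ± 32.7 CPM in Treg cells after anti-PD-1 (log2 fold change 3.46 ± 0.40, adjusted p = 0.00123, edgeR). After isotype the averages were 360 ± 95.4 and 41.4 ± 17.3 CPM (3.05 ± 0.34, adjusted p = 0.000643, edgeR). Fasl, the death ligand, had log2 fold changes of 2.53 ± 0.26 and 1.76 ± 0.49 in these comparisons. After anti-JAML neither passed (adjusted p = 0.0736 for Ifng and 0.115 for Fasl, edgeR). Tnf was lower in CD8 cells after anti-PD-1 (-1.78 ± 0.44, adjusted p = 0.0368, edgeR).

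Whether the members vary together between libraries of the same group was asked with the group means removed from log2 CPM. Over the 12 CD8 libraries, 1 of 36 pairs passed after adjustment, Gzmb with Gzmf (Pearson r = 0.78, permutation p = 0.00054, adjusted p = 0.0194; Spearman rho = 0.84, permutation p = 0.00022). The r was 0.73 without the 2 libraries farthest from the median, and 0.66 over the 10 CD8 libraries left without those that stood apart. The counts of Gzmf were low, 0 to 268 reads, and uncertain because of its likeness to other granzyme copies. Prf1 and Gzmb had r = 0.57 (rho = 0.69, permutation p = 0.00618, adjusted p = 0.111). Of the 36 pairs, 8 had an unadjusted p under 0.05 and 18 a positive r. Over the 12 Treg libraries 0 of 28 pairs passed, and 0 had an unadjusted p under 0.05 in the same permutation test of Pearson's r. Libraries that share cells of another kind or depth deviate together in many genes, so r is given as a description.

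Genes whose log2 CPM followed a member most closely over the 12 CD8 libraries were taken from 7425 genes by Pearson's r, as a description without a test, with antibody differences left in. For Prf1 they were Ciapin1 (r = 0.96), Hsp90b1 (0.95), Sapcd2 (0.95), Eif4h (0.93) and Sh2d2a (0.92). For Gzmb they were Zbp1 (0.98), Gem (0.94), Calr (0.93), Sec13 (0.93) and Eif4h (0.93). For Gzma, with a highest r of 0.83, they were Pinx1, Rpap2, Atp23, Sdr39u1 and Asl. For Gzmk, with the same highest r, they were Tpgs1, Lysmd2, Kdm6a, Pmm1 and Arl5c. Eif4h was in both the Prf1 and the Gzmb list, and no gene was in both the Gzmb and the Gzmk list.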

How the data were processed

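RNA of the 24 libraries was read from the count table and the TPM table that the authors deposited. Build mm10 and the tools STAR 2.7.3a, deepTools 3.3.1, fastp 0.20.1 and SAMtools are listed, per the submitters' processing notes, without their order or settings. For the counts, the counting program, annotation, strand setting and treatment of multiply mapped reads were not stated per the labels or file headers. The authors' TPM values scale those counts by transcript length and per library; they were used only to set genes side by side within a library. The 9 members, the gene lists, the markers and the libraries that stood apart were chosen with earlier results of these data known.

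Of the 54957 gene rows, 54209 (98.64%) matched GENCODE M21 by ID and version, from which positions and transcripts were taken. CPM are counts over effective library sizes (TMM factors of all 24 libraries). Tests used edgeR 4.0.16 (R 4.3.3, limma 3.58.1), the quasi-likelihood F test with TMM and robust dispersion, on genes kept by filterByExpr (minimum count 10, total 15), two-sided, with Benjamini-Hochberg adjustment over all genes tested and a threshold of 0.05. Antibody comparisons were fitted on the 12 libraries of a population, CD8 against Treg on the 8 of an antibody and interactions on all 24; SE is the log2 fold change over the square root of F. Groups do not overlap where every library of one lies beyond every library of the other in CPM. Folds against a group at 0 are lower bounds from a floor of 3 counts over the group. All members were named; for Prf1, Gzma, Gzmb and Gzmk the 5 genes of highest Pearson r over the 12 CD8 libraries were named, among genes averaging at least 10 CPM. Member pairs used log2 CPM (prior count 2) less group means, and 100000 permutations within groups.

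Alternatives were DESeq2 1.42.0, RLE scaling, plain library sizes (added after the data were seen), no filter on low counts, a replicate block, 1 fit on all 24 libraries, a prior count of 0.5 for pairs, each library left out (for the Gzmf lower bounds, added after the data were seen), and the fit without the libraries that stood apart (CD8 anti-JAML replicates 2 and 4, Treg isotype replicate 3, Treg anti-PD-1 replicates 1 and 4). Treg anti-JAML replicate 4, with 1373 CPM of erythroid markers, was not among the libraries that stood apart and stayed in those fits. Treg isotype replicate 3 was among them, although its 76.8 CPM of macrophage markers lay inside its group's range of 20.1 to 91.1 CPM. It had 12643 genes detected, the fewest of all libraries. The code was tested on simulated data. Sequences were handled with Biopython 1.88. No column of per-sample values was left unused.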

Additional observations from a re-analysis of the deposited data

Results flagged for a closer look

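Each of 51 sets of 4 libraries, 1 for each member in each group with reads, was examined for a single library whose gap to its nearest neighbour exceeded Dixon's 95% critical share of the whole range, and 8 did. That share is passed by about 1 in 20 sets of normally distributed values. Sets near 0, such as Gzma in Treg isotype libraries (0, 0, 0 and 1.81 CPM), are not of that kind, so the rate expected here is not known. No explanation was weighed.

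In CD8 cells after anti-JAML, replicate 2 was apart in 2 members: Nkg7 was at 1578 CPM, against 4751 to 5187 CPM in the other 3 libraries, and Lamp1 was at 160 CPM, against 71.7 to 79 CPM. That library had 457 CPM of macrophage markers and 491 CPM of erythroid markers, whose part in these values was not tested. In CD8 cells after anti-PD-1, Gzmk was at 116 CPM in replicate 4, against 198 to 205 CPM in the other 3. In CD8 cells after isotype, Gzmf was at 25.3 CPM in replicate 1, against 1.52 to 4.69 CPM, and Ctsw was at 367 CPM in replicate 2, against 425 to 433 CPM.

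In Treg cells the sets apart were of sparse transcripts. Gzma was at 43.3 CPM in anti-PD-1 replicate 1, against 1.61 to 7.2 CPM in the other 3 libraries. It was at 1.81 CPM in isotype replicate 4, where the other 3 libraries had no read. Gzmk was at 7.54 CPM in isotype replicate 3, against 0 to 0.194 CPM.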

How the results depend on the processing

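Of the 79 member fold changes, 67 kept their direction and side of the threshold in DESeq2, 78 with RLE scaling, 78 with plain library sizes, 76 without the filter on low counts, 71 with the replicate block and 66 without the libraries that stood apart. DESeq2 called 1 member for CD8 anti-PD-1 against isotype (0 in edgeR), 2 for CD8 anti-JAML against anti-PD-1 (0), 3 for Treg anti-PD-1 against isotype (0), 5 for CD8 against Treg under anti-JAML (3) and 8 under anti-PD-1 (5), and edgeR without the filter called 2 for CD8 anti-JAML against anti-PD-1. Causes of these differences were not tested.

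Over all genes DESeq2 called 294, 59 and 376 in CD8 cells (anti-JAML and anti-PD-1 against isotype, then anti-JAML against anti-PD-1), where edgeR called 0, 0 and 1, and 166, 792 and 140 in Treg cells, where edgeR called 0, 3 and 0. For CD8 against Treg it called 1085 after anti-JAML, 2346 after anti-PD-1 and 3049 after isotype (edgeR 248, 955 and 1791), and for the interactions 302, 215 and 153 (edgeR 0 each). For CD8 anti-JAML against anti-PD-1 edgeR called 4 genes with RLE, 9 without the filter and 7 with plain sizes. Plain sizes moved the median of all genes by 0.14 for CD8 anti-JAML against isotype, -0.13 for CD8 against Treg after anti-PD-1 and 0.12 for the anti-JAML interaction. The fit on all 24 libraries called 666 genes after anti-JAML.

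With 1 library left out, members called ran from 0 to 1 for CD8 anti-JAML against anti-PD-1 and for the interactions of anti-JAML and of anti-PD-1 with isotype, from 5 to 8 for CD8 against Treg after isotype, from 4 to 8 under anti-PD-1, and from 1 to 4 under anti-JAML. Calls over all genes ran from 0 to 122 for Treg anti-PD-1 against isotype, from 82 to 328 for CD8 against Treg under anti-JAML and from 396 to 1900 under anti-PD-1.

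Without the libraries that stood apart, the fold changes that turned sign were Gzmc at 0.21 (CD8 anti-JAML against isotype), Gzmk at -0.05, Nkg7 at 0.07 and Ctsw at 0.2 (CD8 anti-JAML against anti-PD-1), Gzma at 1.84 (the same in Treg), Lamp1 at 0.31 (CD8 against Treg after anti-PD-1), and Prf1 at 0.16 and Gzma at -2.49 (interaction between the antibodies). Ctsw in CD8 anti-JAML against anti-PD-1 was 0.01 in DESeq2, 0 with RLE and 0.05 with plain sizes. Leaving out 1 library gave, for CD8 anti-JAML against isotype, Gzmf -2.49 to 0.39 and Ctsw -0.04 to 0.24; for CD8 anti-PD-1 against isotype, Gzmc -0.49 to 0.66, Gzmf -0.84 to 1.5, Ctsw -0.02 to 0.16 and Lamp1 -0.67 to 0.03. For CD8 anti-JAML against anti-PD-1 it gave Nkg7 -0.35 to 0.04 and Ctsw -0.15 to 0.14. In Treg cells it gave Gzmb -0.05 to 0.18 and Lamp1 -0.24 to 0.12 (anti-JAML against isotype), Nkg7 -0.3 to 0.04 (anti-PD-1 against isotype), and Gzma -1.8 to 0.85 and Lamp1 -0.02 to 0.77 (between the antibodies). For CD8 against Treg, Lamp1 ran from -0.21 to 0.04 after isotype and from -0.49 to 0.5 after anti-PD-1. In the interaction between the antibodies Prf1 ran from -1.3 to 0.05 and Gzma from -1.38 to 1.28.

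The labels do not say whether equal replicate numbers mark a shared animal or day. With group means removed, same-numbered libraries correlated at -0.18 to 0.15 within a population, best with their own number in 6 of 24 cases. Between populations they correlated at -0.08 to 0.13, best with their own number in 5 of 12. Low correlations over so few libraries cannot exclude such a pairing, so the fit with a replicate block is given as an alternative. The replicate block turned Gzmc to -0.2 and Gzmf to 0.98 (CD8 anti-PD-1 against isotype) and Gzma to -0.43 (interaction between the antibodies), and called 0 genes for Treg anti-PD-1 against isotype, 1075 for CD8 against Treg after isotype and 95 after anti-JAML.

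With fewer than 400 cells a library and 4 libraries a group, precision is limited by the spread between libraries; the sparse transcripts Gzma, Gzmc and Gzmk had SEs above 1 on the log2 scale in all 3 antibody contrasts of Treg cells.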
